A study of Bos taurus with 4 samples.

Results

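Immediate early genes are switched on within minutes of a signal reaching the cell, without new protein having to be made first, and most of them encode transcription factors that pass the signal on to later genes. The 10 genes described here are EGR1, EGR2 and EGR3 (zinc finger factors of the EGR family), FOS, FOSB, FOSL1, JUN and JUNB (subunits of the dimeric factor AP-1), IER2 (an immediate early gene whose product is a nuclear protein) and ZFP36 (tristetraprolin, which binds AU-rich stretches of mRNAs and speeds their decay). All array probes whose file name for the gene was one of these symbols were taken, which gave 10 of 25151 genes and 21 of 43653 probes. The genes were selected on results of the same arrays, in which several of them differed between groups. Their differences between groups are therefore given as a description of each gene, with intervals but with no p-value. Where a gene is said to be called, it passed an adjusted p under 0.05 in a limma fit over all genes tested. For genes selected in this way a call is not a test, and it too only describes the gene.

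The cells were bovine intramuscular preadipocytes (BIP cells), precursors of the fat cells that lie within muscle. Confluent cultures were harvested at day 0, or after 6 days in adipogenic medium with no retinoid (day 6 control), with all-trans retinoic acid (ATRA, 1 µM) or with 9-cis retinoic acid (9cRA, 1 µM). All day 6 groups shared the same medium, which held insulin (50 ng/mL), dexamethasone (0.25 µM, a glucocorticoid), octanoate (5 mM), acetic acid (10 mM) and 10% fetal bovine serum and was changed every 2 days. The title of the series names vitamin A and its effect on expression profiles during fat cell formation as the question. Both retinoids are acid forms of vitamin A, and they are stereoisomers that differ in the geometry of a double bond. Dexamethasone, insulin and serum were present in every day 6 group, so their own effects on these genes cannot be told apart from those of 6 days in culture.

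Each group is 1 sample in the labels with 3 array files. Nothing in the labels says that these came from separate cultures, so errors and p-values take in the variation from array to array alone, and that may be technical (n = 3 arrays per group throughout). A level is the log2 of a probe's signal minus that array's 75th percentile, so 0 means a signal equal to that percentile, and levels of different probes cannot be set against each other. Between 64.8% and 74.0% of probe spots were well above background, with the lowest share on day 6 control array 1. That array also had 103 spots marked as non-uniform, against 0 to 2 on the others. The arrays lay on 3 slides. All day 0 arrays shared slide 1 with the first day 6 control array. On slide 2 the other day 6 control arrays lay beside the first and second ATRA arrays, and the last ATRA array shared slide 3 with those of 9cRA. Of 14 stromal and preadipocyte markers on the array, 13 were well above background on all arrays in the day 0 and day 6 control groups and 14 in both retinoid groups. ADIPOQ, which encodes the adipocyte hormone adiponectin, was well above background on no array.

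EGR factors bind GC-rich promoter elements, and their transcripts rise in response to growth factors through the RAS, RAF, MEK and ERK kinase chain and serum response factor. AP-1 is a dimer of a JUN protein with a FOS or another JUN protein, and which subunits are present changes what it does to its targets. In fat cell precursors, signals of this kind are known for their part in the first hours of adipogenic stimulation, whereas these arrays measured day 0 and day 6.

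The probes carry these genes' identity, and those below are shown because the results turn on them or because they come from coding sequence. Each is 60 bases long and reads 5′ to 3′ along the mRNA, with coordinates from the files on build UMD3.1. The first set comes from coding sequence, and the FOS, FOSB and FOSL1 stretches encode parts of the basic leucine zipper, the region by which these proteins bind DNA and pair. They lie at chr10:86885752-86885811 (plus strand), chr18:53504676-53504735 (plus) and chr29:44674231-44674290 (minus). EGR1 probe 1 lies at chr7:51439997-51440056 (plus), IER2 probe 1 at chr7:13544850-13544909 (minus) and JUN probe 1 at chr3:87841383-87841442 (plus).
FOS probe 1: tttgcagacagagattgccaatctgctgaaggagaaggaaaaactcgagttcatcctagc
FOSB probe 1: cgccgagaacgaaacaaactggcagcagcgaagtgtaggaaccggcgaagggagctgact
FOSL1 probe 1: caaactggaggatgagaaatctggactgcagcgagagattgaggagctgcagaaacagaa
EGR1 probe 1: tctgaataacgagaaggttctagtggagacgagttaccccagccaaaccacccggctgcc
IER2 probe 1: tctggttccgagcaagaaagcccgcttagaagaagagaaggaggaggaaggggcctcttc
JUN probe 1: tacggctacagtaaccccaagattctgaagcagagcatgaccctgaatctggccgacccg
Over 195 pairs of probes of different member genes, the closest match had 27 of 60 bases alike without gaps, so no probe was near-identical to that of another member.

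The brightest probe of each gene stands for it in the fits, and most of these lie near the 3′ end of the mRNA. The windows of 30 bases below are shown because they hold the AU-rich pentamer to which ZFP36-like proteins are known to bind (ATTTA in DNA letters, capitals) or the polyadenylation signal (AATAAA, capitals).
FOS probe 3, chr10:86887094-86887123, plus: acttgaatgaaaaATTTAagcattgtttgc
FOSL1 probe 2, chr29:44673305-44673334, minus: agcgtgggcagctgctATTTAttttcctaa
JUNB probe 1, chr7:13851183-13851212, minus: cggtttctaaaggATTTAttttaatttgtg
FOSB probe 2, chr18:53507448-53507477, plus: tttcccggagaagATTTAaaggctgaggct
FOSB probe 3, chr18:53508384-53508413, plus: tgcactgtcgccAATAAAaaactcttaaaa
IER2 probe 2, chr7:13543670-13543699, minus: agaatcgccagataggaaAATAAAgaccaa
JUN probe 3, chr3:87842969-87842998, plus: gcactctgagtttaccatttgtAATAAAgt
ATTTA was present in 4 of the 21 member probes (19%), against 3253 of all 43653 probes (7.45%), read on the probe strand only. The longer form TATTTAT, which contains ATTTA, was found in the FOSL1 window alone among member probes and in 1.04% of all probes. AATAAA was present in 3 member probes (14.3%) and in 9.35% of all probes. These matches describe the letters of the probes, not sites of binding. The other probes that stand for a gene lie at chr7:51442425-51442484 (EGR1 probe 3, plus), chr28:19012888-19012947 (EGR2, minus), chr8:70504119-70504178 (EGR3, minus) and chr18:49374979-49375038 (ZFP36, plus). Probes of IER2 and JUNB lie 306.2 kb apart on chromosome 7, both on the minus strand.

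EGR1 had the largest range of the EGR genes measured above background. Its level was 3.74, 3.47 and 3.51 on the day 0 arrays, 1.69, 1.70 and 1.87 on the day 6 control arrays, 3.11, 3.06 and 2.98 with ATRA and 4.27, 4.01 and 3.995 with 9cRA. No group overlapped another, and the order from high to low was 9cRA, day 0, ATRA and day 6 control. EGR1 fell by 1.82 ± 0.10 (SE) on the log2 scale over culture without retinoid (3.53-fold lower at day 6). It was 1.29 ± 0.10 higher with ATRA (2.45-fold) and 2.34 ± 0.10 higher with 9cRA (5.06-fold) than in the day 6 control. Against day 0, ATRA cultures were 0.52 lower (interval of the difference -0.74 to -0.31) and 9cRA cultures 0.52 higher (0.30 to 0.73). The 2 other EGR1 probes gave the same order of retinoid effects. Probe 2 differed by 0.95 with ATRA and 1.87 with 9cRA, and probe 1, which was well above background on 2 of 3 day 6 control arrays, by 1.40 and 2.44. Against day 0 the ATRA difference was -0.45 at probe 2, called, but -0.13 at probe 1, not called and with overlapping arrays. With 9cRA the differences from day 0 were 0.47 at probe 2 and 0.92 at probe 1, both called.

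EGR2 varied far less. Its level was -1.48, -1.60 and -1.73 at day 0, -2.18, -1.83 and -1.83 in the day 6 control, -1.70, -1.64 and -1.40 with ATRA and -1.63, -1.76 and -1.76 with 9cRA. The day 6 control arrays lay below those of every other group, and the other groups overlapped one another. EGR2 fell by 0.34 ± 0.11 over culture and rose by 0.36 ± 0.11 with ATRA, while the difference with 9cRA was 0.23 (interval -0.02 to 0.48) and was not called. Both calls rested on single arrays. Without day 6 control array 1 the differences were -0.23 and 0.25, and without ATRA array 3 the ATRA difference was 0.27, none of them called. The fall was also not called without day 0 array 1 (-0.28) or day 0 array 2 (-0.34). Within slide 2 the ATRA difference was 0.16. The ATRA increase was also not called with slide as a block (0.16), with the mean of both EGR2 probes (0.57) or with only the compared groups in the fit (0.36), nor was the fall over culture with only the compared groups (-0.34).

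EGR3 was too dim to be tested. Its probe was well above background on 0 of 3 day 0 arrays, 0 of 3 day 6 control arrays, 2 of 3 ATRA arrays and 2 of 3 9cRA arrays. Measured values were -6.40, -6.67 and -6.67 at day 0, -7.26, -7.88 and -6.79 in the day 6 control, -5.56, -5.64 and -3.23 with ATRA and -5.36, -5.24 and -5.72 with 9cRA. The ATRA arrays disagreed, with array 3 far above the others. For such a probe only a lower limit of the fold can be given, from the mean of the brighter group over, on each array of the dim group, its own signal or the lowest signal well above background, whichever is higher. By this limit EGR3 was at least 1.94-fold higher with ATRA and at least 1.25-fold higher with 9cRA than in the day 6 control. With the median ATRA array in place of the mean, the limit was 1.15-fold.

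**Figure D1:**
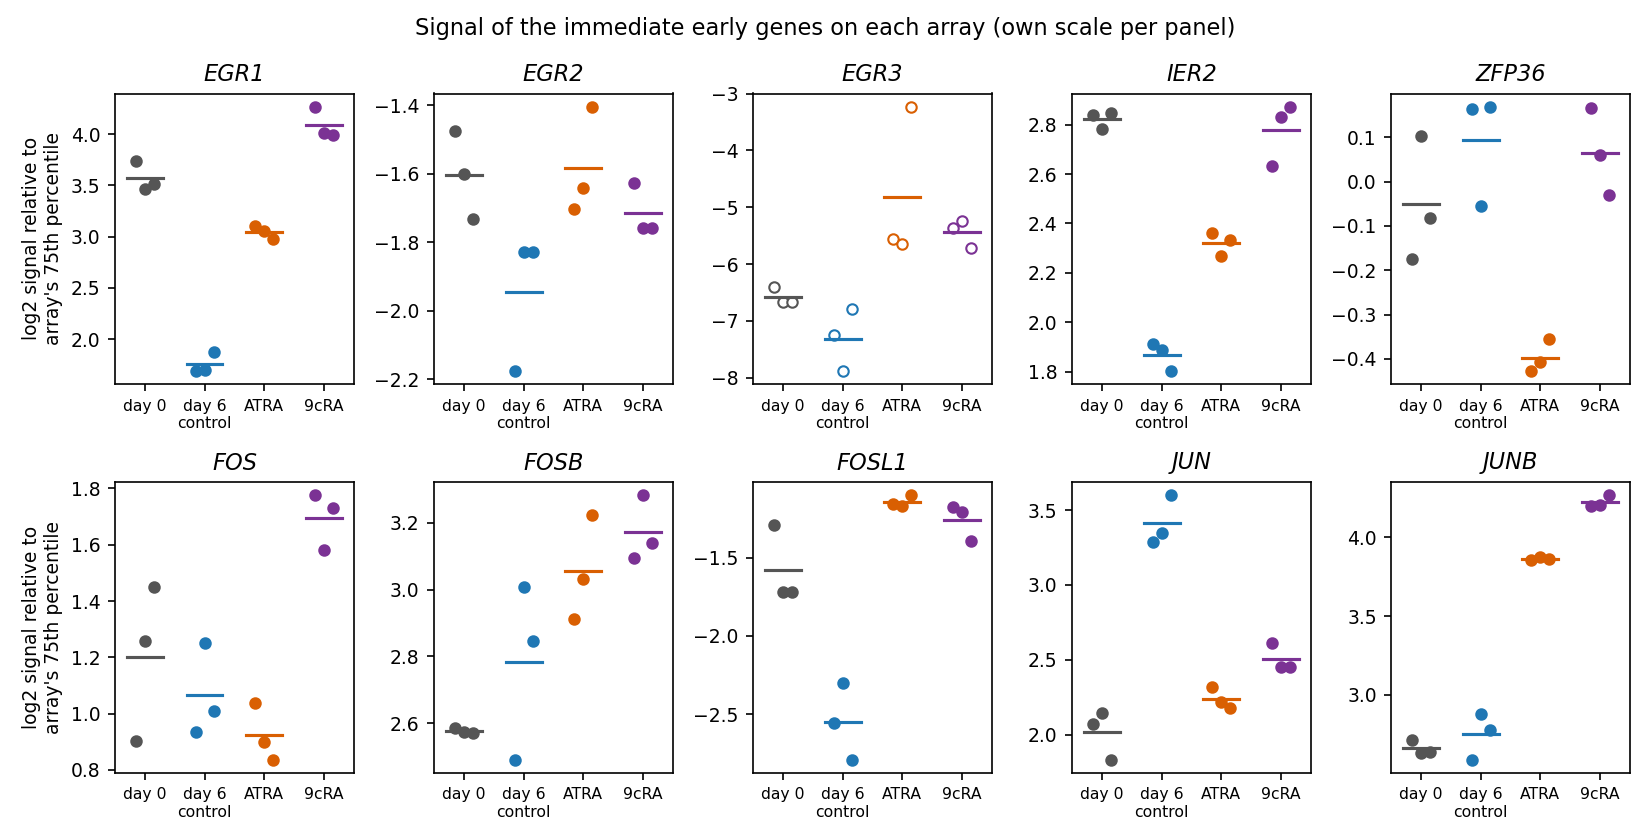
Level of each gene's brightest probe on every array (log2 signal relative to the array's 75th percentile, own vertical scale per panel) for day 0, day 6 control, ATRA and 9cRA, with bars at group means and open points where the probe was not well above background on all 3 arrays of a group. EGR1 and IER2 were lowest in the day 6 control (means 1.75 and 1.87), JUN was highest there (3.41), and JUNB was higher with both retinoids (3.86 and 4.22) than in either group without.

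Among the FOS genes, FOSL1 moved most. FOSL1 encodes FRA1, a FOS protein without a strong activation domain. Its level was -1.29, -1.72 and -1.72 at day 0, -2.56, -2.30 and -2.79 in the day 6 control, -1.16, -1.17 and -1.10 with ATRA and -1.18, -1.21 and -1.39 with 9cRA. The day 6 control arrays were below all others, and the retinoid groups were the highest. FOSL1 fell by 0.97 ± 0.14 over culture (1.96-fold), and rose by 1.40 ± 0.14 with ATRA (2.65-fold) and 1.29 ± 0.14 with 9cRA (2.44-fold). Against day 0 it was 0.44 higher with ATRA (0.12 to 0.75), a call that was lost without day 0 array 2 (0.36) or day 0 array 3 (0.36). With 9cRA it was 0.32 higher (0.01 to 0.63), not called, with overlapping arrays. That difference was called without day 0 array 1 (0.46) and, at 0.32, also without day 6 control array 2 or array 3. FOSL1 probe 1, in the zipper sequence printed above, was well above background on 1 day 0 and 1 ATRA array only.

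FOS itself was highest with 9cRA. Its level was 0.90, 1.26 and 1.45 at day 0, 0.93, 1.25 and 1.01 in the day 6 control, 1.04, 0.90 and 0.84 with ATRA and 1.78, 1.58 and 1.73 with 9cRA. The 9cRA arrays lay above all others, and the other groups overlapped. FOS rose by 0.63 ± 0.13 with 9cRA (1.55-fold) and differed by -0.14 (interval -0.44 to 0.16) with ATRA and by -0.14 (-0.44 to 0.16) over culture, neither called. Its probes disagreed on the 9cRA increase. Probe 2 differed by 0.50, called, but probe 1, in the zipper sequence, by -0.12, not called. Probe 1 read -2.16 on day 6 control array 1 and -3.28 and -3.73 on arrays 2 and 3, so that control was uneven for this probe. With the mean of all FOS probes the 9cRA difference was 0.33 and was not called. Over culture the probes disagreed too, with probe 2 at -0.47, called, and probe 1 at 0.17, not called. Against day 0 the 9cRA difference was 0.49, called, at probe 3 but 0.04 and 0.03 at probes 1 and 2, and with ATRA probe 2 differed by -0.64, called.

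FOSB differed little. Its level was 2.59, 2.58 and 2.57 at day 0, 2.49, 3.01 and 2.85 in the day 6 control, 2.91, 3.03 and 3.22 with ATRA and 3.096, 3.28 and 3.14 with 9cRA. Day 6 control array 1 was below the day 0 arrays and the other 2 control arrays above them. FOSB was 0.39 ± 0.12 higher with 9cRA than in the day 6 control, called, and 0.27 (interval -0.0006 to 0.55) with ATRA, not called. The 9cRA call was lost without day 6 control array 1 (0.24) or 9cRA array 2 (0.34), and with slide as a block the difference was -0.0048. The difference over culture became a call without day 6 control array 1 (0.35), and that with ATRA without day 6 control array 2 (0.39). Probe 2 was called higher with ATRA (0.45) and with 9cRA (0.34) and differed by 0.08 over culture, not called. Against day 0, FOSB was 0.48 higher with ATRA and 0.60 higher with 9cRA, both called. These also turned with slide as a block, to -0.041 and -0.090, values that rest on the single arrays that tie the slides together.

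JUN was highest in the day 6 control. Its level was 2.07, 2.15 and 1.83 at day 0, 3.29, 3.34 and 3.599 in the day 6 control, 2.32, 2.22 and 2.18 with ATRA and 2.61, 2.45 and 2.45 with 9cRA. The day 6 control arrays were above all others without overlap, and the order was day 6 control, 9cRA, ATRA and day 0. JUN rose by 1.39 ± 0.10 over culture (2.62-fold) and fell by 1.17 ± 0.10 with ATRA (2.25-fold) and fell by 0.91 ± 0.10 with 9cRA (1.87-fold). All 3 JUN probes were called in these directions, from 1.31 to 1.63 over culture, -1.26 to -1.06 with ATRA and -1.22 to -0.91 with 9cRA. With 9cRA JUN was 0.49 above day 0 (0.26 to 0.71), called. The probes disagreed on the comparison with day 0. With 9cRA probe 2 differed by 0.65, called, but probe 1 by 0.08, not called, and with ATRA probe 2 differed by 0.57, called, but probe 1 by 0.05, not called. At the probe that stands for the gene, the ATRA difference from day 0 was 0.22 (-0.01 to 0.45), not called, although it was called without day 0 array 2 (0.29) or day 6 control array 3 (0.22).

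JUNB, whose protein is a weaker activator than JUN and can hold it in check, was higher with each retinoid. Its level was 2.72, 2.63 and 2.64 at day 0, 2.59, 2.88 and 2.78 in the day 6 control, 3.86, 3.87 and 3.86 with ATRA and 4.20, 4.20 and 4.27 with 9cRA. The groups without retinoid overlapped, and both retinoid groups stood above them and apart from each other. JUNB rose by 1.11 ± 0.07 with ATRA (2.16-fold) and 1.47 ± 0.07 with 9cRA (2.78-fold). Over culture it differed by 0.09 (interval -0.06 to 0.24), not called, but at 0.17 it was called without day 6 control array 1. Against day 0 it was 2.30-fold higher with ATRA and 2.95-fold higher with 9cRA. JUNB had a single probe.

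IER2 followed the order of EGR1 except at its top. Its level was 2.84, 2.78 and 2.85 at day 0, 1.91, 1.89 and 1.80 in the day 6 control, 2.36, 2.27 and 2.33 with ATRA and 2.63, 2.83 and 2.87 with 9cRA. Day 0 and 9cRA arrays overlapped (difference -0.04, interval -0.19 to 0.10), ATRA lay between, and the day 6 control was lowest. IER2 fell by 0.96 ± 0.07 over culture (1.94-fold), and rose by 0.46 ± 0.07 with ATRA (1.37-fold) and 0.91 ± 0.07 with 9cRA (1.88-fold). Probe 1, in coding sequence, differed by -1.40, 0.43 and 0.85 in the same comparisons, the ATRA value not called, and was well above background on 2 of 3 day 6 control arrays. The probes disagreed on 9cRA against day 0, where probe 1 was 0.55 lower and called. With the mean of both probes IER2 was 0.30 lower than at day 0, also called.

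ZFP36 had its lowest levels with ATRA. Its level was -0.17, 0.10 and -0.08 at day 0, 0.16, -0.05 and 0.17 in the day 6 control, -0.43, -0.41 and -0.36 with ATRA and 0.17, 0.06 and -0.03 with 9cRA. The ATRA arrays were below all others, and the other groups overlapped. ZFP36 fell by 0.49 ± 0.09 with ATRA (1.40-fold) and differed by -0.03 (interval -0.22 to 0.17) with 9cRA and by 0.14 (-0.05 to 0.34) over culture, neither called. It had a single probe.

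Read together, 9 of the 10 genes could be tested in a limma fit over all 17622 genes measured above background in at least 1 group, and a gene was called at an adjusted p under 0.05. Over culture 5 were called (EGR1, EGR2, FOSL1 and IER2 lower, JUN higher), against 62.3% of all genes (31% higher, 31.3% lower). With ATRA 7 were called (EGR1, EGR2, FOSL1, JUNB and IER2 higher, JUN and ZFP36 lower), against 46.1% (23.7% higher, 22.4% lower). With 9cRA 7 were called (EGR1, FOS, FOSB, FOSL1, JUNB and IER2 higher, JUN lower), against 46.5% (24.8% higher, 21.8% lower). Because these comparisons entered the choice of the genes, nothing is read from the counts. The median difference over the 9 genes was -0.14 over culture, 0.36 with ATRA and 0.63 with 9cRA, beside medians over all genes of 0.00, 0.05 and 0.06. With slide as a block, the ATRA median was 0.16. The ATRA and 9cRA comparisons share the 3 day 6 control arrays, so a low or high control value moves both. The same value moves the comparison over culture the opposite way. A fall over culture with a rise with both retinoids, or the reverse, is therefore not a set of separate observations.

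**Figure D2:**
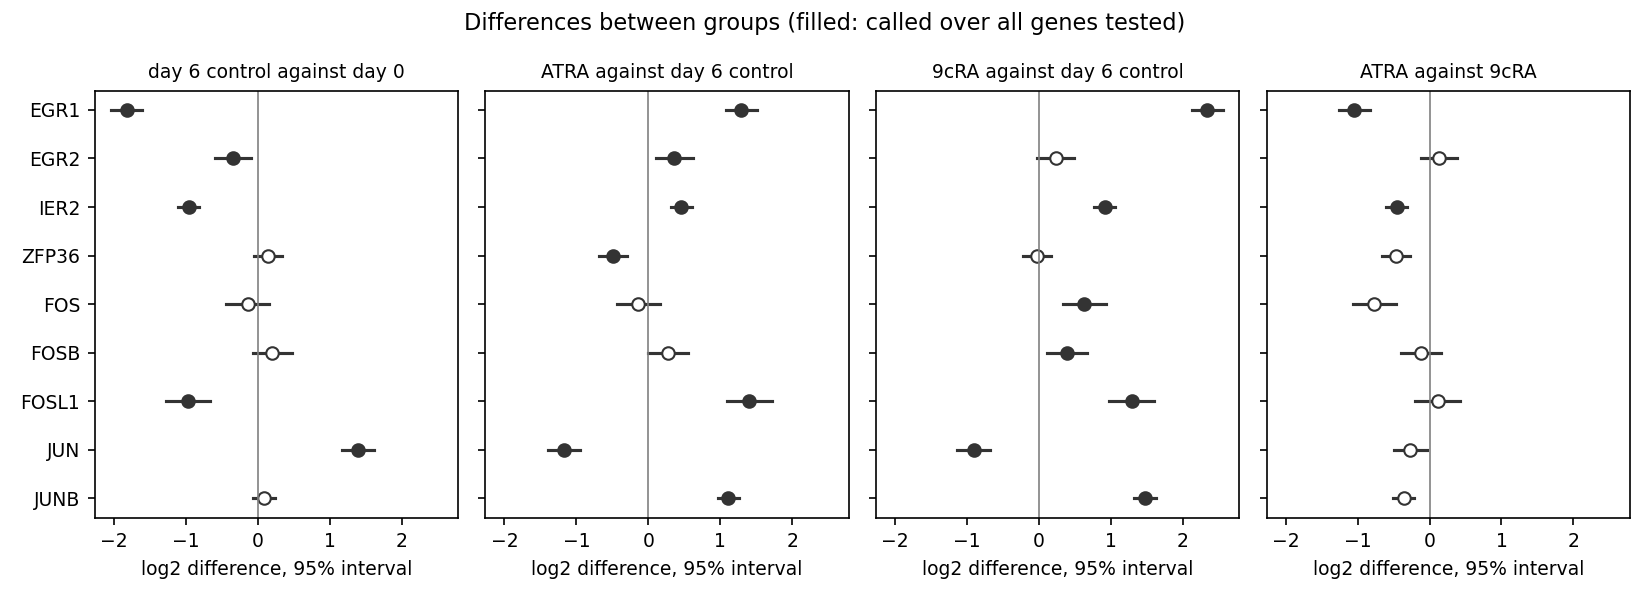
Difference between groups for the 9 tested genes (points, log2 scale) with 95% intervals from the fit over all arrays, filled where called over all genes tested. EGR1, FOSL1 and IER2 lie left of 0 over culture and right of 0 with each retinoid, JUN does the reverse, and EGR1 (-1.04) and IER2 (-0.46) are the filled points between the retinoids.

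Set against day 0, ATRA-treated cultures had 6 of the 9 genes called (FOSB, FOSL1 and JUNB higher, EGR1, IER2 and ZFP36 lower), beside 71.5% of all genes (38.7% higher, 32.8% lower). Cultures with 9cRA had 5 called, all higher (EGR1, FOS, FOSB, JUN and JUNB), beside 71.3% (39% higher, 32.4% lower). No slide held day 0 and a retinoid group together. Slide 1 was tied to the other slides by day 6 control array 1 alone, and slide 3 by ATRA array 3 alone. Block estimates against day 0 therefore rest on that control array, and those of 9cRA on both arrays. With slide as a block, 2 members were called with 9cRA against day 0, EGR2 lower at -0.73 and JUNB higher. EGR2 with ATRA moved from 0.02, not called, to -0.42, called. The calls of EGR1 (0.53), FOS (0.43), JUN (0.39) and FOSB were lost there, and so were those of FOSL1 (0.40) and ZFP36 (-0.26) with ATRA. Scaling arrays by their median in place of the 75th percentile moved the median difference of all genes from 0.05 to -0.07 with ATRA and from 0.07 to -0.06 with 9cRA. Under that scaling FOSL1 with ATRA was 0.31 and not called, and FOS with ATRA was -0.41 and called. FOS with ATRA was also called without day 0 array 1 (-0.43).

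ATRA and 9cRA were given at the same dose and harvested on the same day, so they could be compared directly. Every difference below is ATRA minus 9cRA over the 9 genes, 1 pair of compounds. EGR1 was 1.04 ± 0.10 lower with ATRA (interval -1.26 to -0.83, 2.06-fold) and IER2 0.46 ± 0.07 lower (-0.60 to -0.31, 1.37-fold). These were the 2 members among the 21 genes called, 0.119% of all genes tested (0.0624% higher and 0.0567% lower with ATRA). With slide as a block 30 genes were called higher with ATRA and 5 lower (85.7% higher). FOS was 0.77 lower with ATRA (-1.07 to -0.47), ZFP36 0.46 lower (-0.66 to -0.27), JUNB 0.36 lower (-0.51 to -0.21) and JUN 0.26 lower (-0.49 to -0.04). None of these 4 was called, although their arrays did not overlap. For EGR2 (0.13, interval -0.12 to 0.38), FOSB (-0.12, -0.39 to 0.16) and FOSL1 (0.12, -0.20 to 0.43) the interval held 0. That does not show that the compounds act alike on them, and differences inside those intervals remain possible. In 7 of the 9 genes the arrays of the compounds did not overlap, in 6 of them with ATRA below, against 16.4% of all genes without overlap and 8.18% with ATRA below. The genes were selected on results of these arrays, so nothing is read from the members' counts between the retinoids. All 9cRA arrays but only the last ATRA array lay on slide 3, so slide enters the overlap too. The members' median difference was -0.36 and that of all genes -0.01.

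Other probes of EGR1, FOS and IER2 gave like sizes. EGR1 differed by -1.04 and -0.92 at probes 1 and 2, FOS by -0.59 and -0.67, and IER2 probe 1 by -0.42. JUN did not, with -0.04 and -0.08 at probes 1 and 2 beside -0.26 at probe 3, and FOSB probe 2 differed by 0.11 beside -0.12 at probe 3. Of the first set only EGR1 probe 2 was called when the fit ran over probes, where 3 of 17 tested member probes were called, beside 0.151% of all 31205. Within slide 3, ATRA array 3 differed from the mean of the 9cRA arrays by -1.11 for EGR1, -0.86 for FOS, -0.44 for IER2, -0.42 for ZFP36 and -0.36 for JUNB. The calls were less firm than the values. EGR1 was not called when only these 2 groups entered the fit, or without ATRA array 2 (-1.05), ATRA array 3 (-1.01) or 9cRA array 2 (-1.08). IER2 lost its call in 16 of 23 alternatives, among them 10 of the 12 that left out an array, while its value stayed between -0.53 and -0.41. The arrays whose loss left IER2 called were day 6 control array 1 and 9cRA array 1. JUNB became a call, at -0.36, without day 6 control array 1.

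**Figure D3:**
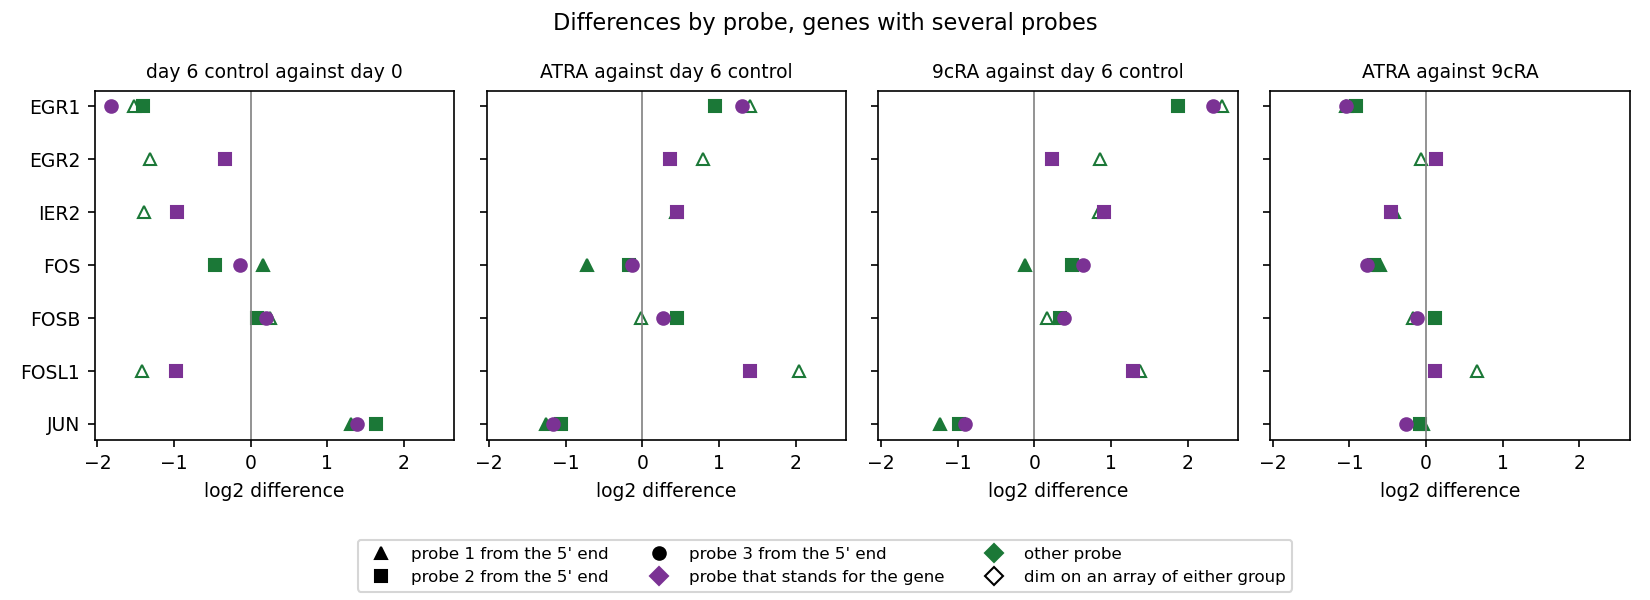
Log2 difference at every probe of the 7 genes with more than 1 probe, by position from the 5′ end, purple for the probe that stands for the gene and open where it was dim on any array compared. All EGR1 probes lie left of 0 over culture and right of 0 with each retinoid, all JUN probes do the reverse, and the FOS probes lie on both sides of 0 with 9cRA (-0.12 to 0.63).

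The rest of the immediate early class did not move as a block. Over all genes tested, 31% were called higher and 31.3% lower over culture, 23.7% and 22.4% with ATRA, and 24.8% and 21.8% with 9cRA. These shares stand beside the counts of this and the later lists, and no list was tested against them. Of 32 other immediate early genes tested (35 listed), 12 rose, 12 fell and 8 were not called over culture, 9 rose and 15 fell with ATRA, and 12 rose and 15 fell with 9cRA (median differences 0.00, -0.09 and -0.17). Over culture MYC, a growth-promoting factor, rose by 2.95 ± 0.06 (adjusted p = 1.5e-10), NFKBIZ, a regulator of NF-κB target genes, by 2.42 ± 0.07 (7.6e-10) and NFIL3, a basic leucine zipper repressor, by 1.86 ± 0.04 (2.6e-10). With retinoids CCN1, a matricellular protein, fell by 1.85 ± 0.11 (ATRA, adjusted p = 4.7e-07) and fell by 1.40 ± 0.11 (9cRA, 3.9e-06). RHOB, a small GTPase, fell by 1.52 (ATRA) and fell by 1.30 (9cRA). NR4A1, an orphan nuclear receptor, fell by 1.11 with ATRA and fell by 1.02 with 9cRA. EGR1, JUNB and FOSL1 were called higher in the same cultures in which NR4A1, CCN1 and RHOB were called lower. Other genes of that list were called higher there too, 9 with ATRA and 12 with 9cRA.

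Genes that restrain ERK signalling are induced by the same pathway that switches on EGR1. The list of such feedback inhibitors (14 listed) also held related phosphatases that are not limited to ERK. Of its 10 genes tested, 5 rose and 5 fell over culture. With ATRA 4 rose and 3 fell, and with 9cRA 5 rose and 1 fell (medians of the comparisons 0.05, 0.05 and 0.29). SPRY2, a Sprouty inhibitor of receptor signalling, fell by 1.12 ± 0.07 over culture (adjusted p = 3e-07) and rose by 1.06 ± 0.07 with ATRA (8.8e-07) and 1.30 ± 0.07 with 9cRA (2.1e-07). DUSP6, an ERK phosphatase, rose by 0.98 and 1.17 with the retinoids. DUSP1, a MAP kinase phosphatase known to be induced by glucocorticoids, rose by 1.54 ± 0.06 over culture (adjusted p = 1e-08), and DUSP10 fell by 1.32 over culture, fell by 0.97 with ATRA and fell by 0.96 with 9cRA. A list around RAS, RAF, MEK and the MAP kinases (29 listed) was not limited to the ERK branch. Of its 26 genes tested, 8 rose and 6 fell over culture. With ATRA 4 rose and 7 fell, and with 9cRA 6 rose and 8 fell (medians of the comparisons 0.06, -0.06 and 0.00). EGFR, the receptor for epidermal growth factor, rose by 1.06 with ATRA and 1.00 with 9cRA, while the kinase gene MAPK11 fell by 0.98 with ATRA and fell by 1.08 with 9cRA. MAP2K3, another kinase gene on this list, differed by -0.68 and -0.66, both called.

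The factors that act at immediate early promoters, the serum response factor and ETS group, moved little. Of 8 tested (9 listed), 2 rose and 1 fell over culture, and ELK3 was the only one called with either retinoid (medians -0.04, -0.09 and 0.04). ELK3, an ETS partner of serum response factor, rose by 0.74 ± 0.06 over culture (adjusted p = 2.7e-06) and fell by 0.47 ± 0.06 with ATRA (1.6e-04) and fell by 0.35 ± 0.06 with 9cRA (1.1e-03). Of 9 other AP-1 and EGR partners tested (11 listed), 3 fell over culture, 1 rose and 3 fell with ATRA, and 2 rose and 1 fell with 9cRA (medians -0.25, 0.07 and -0.06). NAB2, a corepressor that binds EGR1 and is itself one of its known targets, fell by 1.05 ± 0.06 over culture (9.6e-08) and rose by 0.75 ± 0.06 with ATRA (2.3e-06) and 0.78 ± 0.06 with 9cRA (2e-06). JDP2, a repressor that pairs with JUN proteins, fell by 1.09 with ATRA and fell by 0.99 with 9cRA.

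Known targets of these factors went both ways, as did the genes of the whole array. Of 12 AP-1 targets tested (14 listed), 6 rose and 4 fell over culture, and 5 rose and 4 fell with each retinoid. MMP1, a collagenase, rose by 3.04 ± 0.13 over culture (adjusted p = 1.7e-08) and by a further 2.01 and 2.17 with ATRA and 9cRA, and SPP1 (osteopontin) rose by 4.19 ± 0.08 and 4.21 ± 0.08 (2.7e-10 and 2.8e-10). IL6, a cytokine, fell by 2.20 with ATRA and fell by 1.86 with 9cRA. Of 13 EGR1 targets, 7 rose and 4 fell over culture, 4 rose and 5 fell with ATRA, and 5 rose and 5 fell with 9cRA. PDGFA, a growth factor gene, rose by 1.56 ± 0.06 with ATRA and 1.58 ± 0.06 with 9cRA (adjusted p = 1.1e-08 for both), whereas F3 (tissue factor) fell by 2.10 with ATRA and fell by 1.84 with 9cRA. THBS1 (thrombospondin) fell by 1.00 with ATRA and fell by 0.96 with 9cRA. Of 13 mRNAs tested that ZFP36 is known to bind (17 listed), 6 rose and 5 fell over culture, 6 rose and 5 fell with ATRA, and 7 rose and 5 fell with 9cRA. PTGS2, which encodes an inducible cyclooxygenase, rose by 2.02 and 2.21, and CCL2, a chemokine, fell by 1.82 with ATRA and fell by 1.67 with 9cRA. The medians of these 3 lists lay between 0.04 and 0.33 over the 3 comparisons.

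Between the retinoids, 0 genes of these lists were called in the limma fit. Of all 17622 genes, 5.61% were higher and 4.87% lower with ATRA at an unadjusted p under 0.05. At that p the same fit gave 1 higher and 10 lower with ATRA among the 32 other immediate early genes. It gave 0 higher and 4 lower among the 10 feedback inhibitors and related phosphatases. There were 0 higher and 5 lower among the 26 genes of the MAP kinase list and 0 higher and 3 lower among the 13 EGR1 targets. The medians were -0.10, -0.24, -0.03 and -0.07. In the lists of promoter factors, partners, AP-1 targets and ZFP36-bound mRNAs it gave 0 or 1 higher and 0 to 2 lower, with medians of -0.10, -0.09, -0.03 and -0.07.

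**Figure D4:**
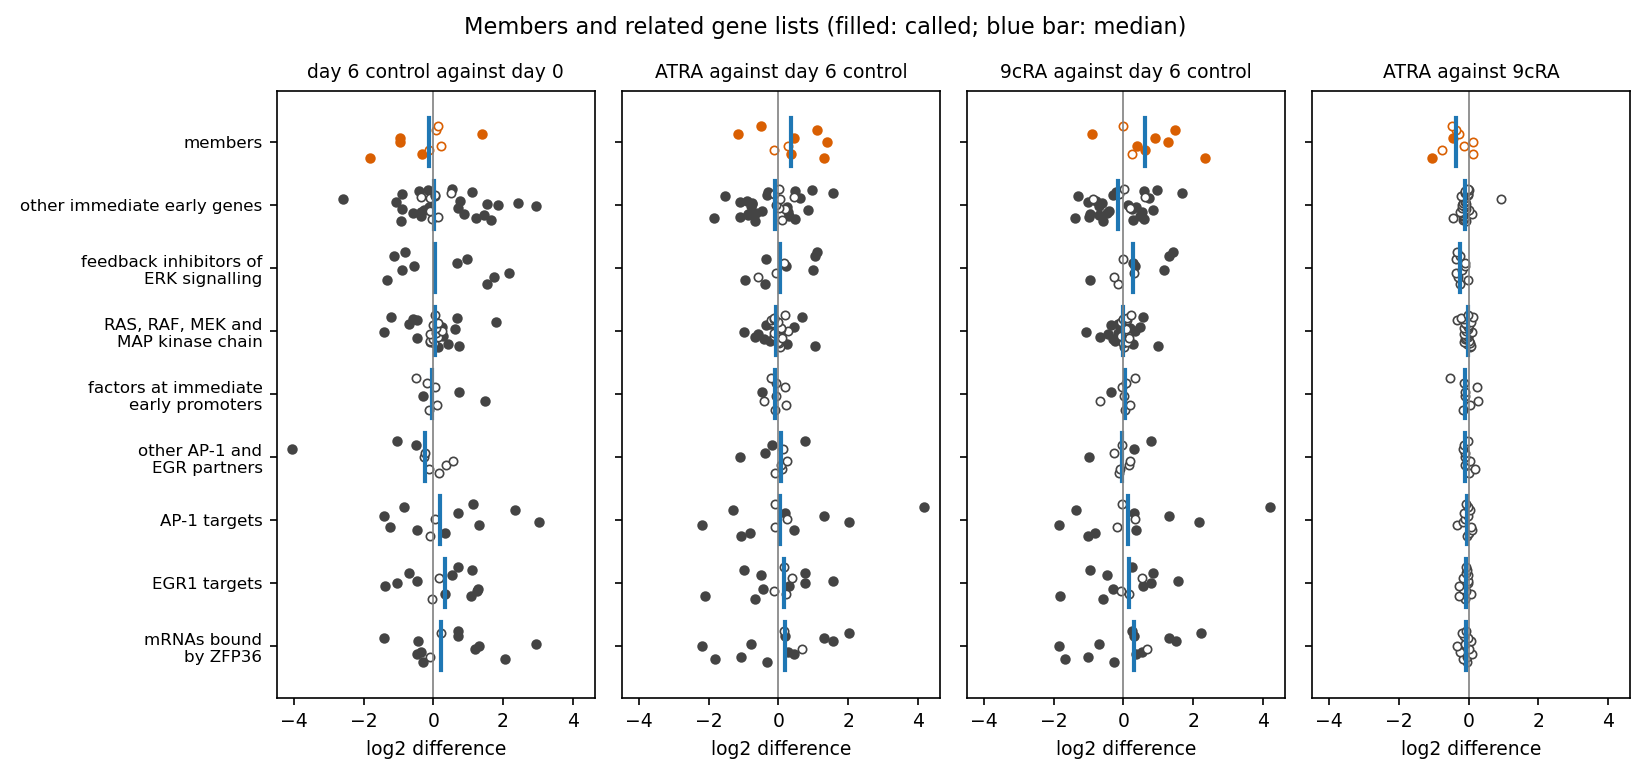
Log2 differences of the 9 tested members (orange) and of 8 lists of related genes (grey), filled where called, with a blue bar at each median. The lists spread to both sides of 0 in the first 3 panels, and in the ATRA against 9cRA panel the filled points are the members EGR1 and IER2.

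By correlation of levels over the 12 arrays, among 12099 genes, the patterns most like EGR1 were those of HBP1 (r = 0.95), SPRY2 (0.95), TEX2 (0.95), TMEM30B (0.94) and SYNPO2 (0.94). Those most like IER2 were YRDC (0.97), HNRNPR (0.96), STX11 (0.96), ZNF132 (0.95) and ATP5PB (0.94). The points share 4 groups and 3 slides, so these values describe a likeness of group means, not always their exact order. Unlike EGR1, HBP1 and TMEM30B had ATRA means slightly above day 0 (2.429 beside 2.423, and 0.665 beside 0.657). SPRY2, with means of 1.91 at day 0, 0.79 in the day 6 control, 1.85 with ATRA and 2.09 with 9cRA, was also on the list of feedback inhibitors.

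Markers of other cell types moved with the groups. The summed signal of 11 endothelial markers, relative to the 75th percentile, was 1.145 to 1.251 at day 0 and 1.15 to 1.44 in the day 6 control. It was 2.35 to 2.37 with ATRA and 2.29 to 2.47 with 9cRA, with PECAM1 and ESAM above background on no array in any group. ERG made up 63.7% to 78.4% of that sum in the 4 groups. Of 7 tested, 4 rose and 0 fell with each retinoid (medians 0.66 and 0.68). The summed signal of 11 immune markers was 6.797 to 7.253 at day 0, 5.95 to 7.87 in the day 6 control and 9.79 to 10.6 with retinoids. CD3E, ITGAM and AIF1 were above background on no array, and LYZ made up 47.9% to 63.4% of the sum in the 4 groups. LYZ was called with neither retinoid. CD14 rose by 2.31 with ATRA and 2.33 with 9cRA, and PTPRC by 0.86 and 0.78. Of 8 tested, 5 rose with ATRA and 6 with 9cRA, and 0 fell (medians 0.37 and 0.45). That of 11 skeletal muscle markers was 74.4 to 79.4 at day 0, 45.1 to 49.4 in the day 6 control and 20.1 to 23.3 with retinoids, with MYF5 and MYF6 above background on no array. DES, which encodes the intermediate filament desmin, made up 82.5% to 91.4% of that sum in the 4 groups. Of 6 tested, 1 rose and 2 fell over culture, 1 rose and 2 fell with ATRA, and 0 rose and 2 fell with 9cRA (medians -0.06, 0.23 and 0.16). DES and ACTA1, a muscle actin, fell in all 3 comparisons. MYH3, an embryonic myosin heavy chain, rose by 2.86 over culture. It was well above background on no day 0 array, so the size of that rise is uncertain. That of 10 adipocyte markers was 31.4 to 35.1 at day 0, 99.9 to 118.5 in the day 6 control and 33.3 to 38.8 with retinoids. FABP4, a fatty acid carrier, made up 70.7% of the day 6 control sum, and it rose by 4.34 over culture, fell by 4.94 with ATRA and fell by 4.64 with 9cRA. Of 8 adipocyte markers tested, 3 rose and 2 fell over culture, and 2 rose and 2 fell with each retinoid (medians -0.09, 0.05 and 0.06). PPARG, the nuclear receptor that drives fat cell formation, rose by 1.81 over culture and differed by 0.02 and 0.06 with the retinoids, neither called. CIDEC, a lipid droplet protein, fell by 2.84 over culture. The part of all these markers in the differences of the immediate early genes was not tested, and in these bulk samples fewer cells of a type cannot be told apart from less RNA per cell. Of 10 heat shock genes, which respond to handling, 2 rose and 2 fell over culture, 1 rose and 5 fell with ATRA, and 2 rose and 5 fell with 9cRA. HSPA1A fell by 0.66 with ATRA and fell by 0.46 with 9cRA. The labels give no time between the last medium change and harvest, so its part in the levels at day 6 was not tested.

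Within slides, where both groups of a comparison lay on one, the sizes were close for the genes that moved most. Over culture, day 6 control array 1 differed from the day 0 arrays on slide 1 by -1.88 for EGR1, -0.98 for FOSL1, -0.91 for IER2 and 1.27 for JUN. On slide 2, ATRA arrays 1 and 2 differed from day 6 control arrays 2 and 3 by 1.30 for EGR1, 1.38 for FOSL1, 1.04 for JUNB, 0.47 for IER2, -0.47 for ZFP36 and -1.20 for JUN. No slide held both 9cRA and day 6 control arrays, and slide 3 was tied to the other slides by ATRA array 3 alone. Block estimates of 9cRA against day 6 control therefore rest on that array. With slide as a block those differences were 2.41 for EGR1, 1.40 for JUNB, 1.22 for FOSL1, 0.92 for IER2 and -0.88 for JUN, all called, while FOS at 0.70 was not.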

How the data were processed

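RNA of the 4 groups was measured on 12 arrays of 1 colour (Cy3). The authors deposited each array's spot intensity on a linear scale as output of Feature Extraction 10.7.3.1, with background subtracted and no scaling between arrays, per the file headers. A second deposited file gives log2 values by group. Comparison with the arrays showed a log2 scale, group means minus each probe's median, and the direction of the arrays (median gaps 0.00255 to 0.00276, r = 0.935 to 0.992 over probes). Its column medians were 0.01, -0.01, 0.01 and 0.02. Its differences were set beside those computed here.

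Control spots (1417 of 45220 per array) and spots marked as outliers were left out, and no member spot was saturated. Signals were taken to log2, scaled by subtracting the 75th percentile of the array and averaged over spots of a probe, and a gene was represented by its probe with the highest mean. Names came through a RefSeq accession for 28562 of 43653 probes (assembly ARS-UCD2.0, names only), from a current symbol for 5113 and an older one for 138, and 9840 kept the file's name. A gene was tested (17622 in all) where every array of some group had its probe well above background. The fit used limma 3.58.1 (lmFit, eBayes, two-sided) in R 4.3.3, with a mean per group and all arrays, and p-values were adjusted by Benjamini-Hochberg within each comparison. The fit was tested on simulated data. The number of arrays limits the precision.

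The members, the gene lists, the tests and the rule for named genes were chosen with earlier results of these data known. The rule names all members, up to 3 genes per list with the largest called difference in a comparison, and 5 genes most like EGR1 and IER2. Some genes that it takes are not reported here. Alternatives were background correction, scaling, filters, probe choice, slide, array number, the groups in the fit and each array left out.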

Additional observations from a re-analysis of the deposited data

How the results depend on the processing

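Members' differences under 23 alternatives mostly kept their direction and their side of the threshold. Most of those that did not stand beside each gene above. Besides those, JUNB over culture was called with quantile normalization (0.18) and loess (0.19). Between the retinoids FOS was called with normexp background (-0.75) and with a filter for signal in all groups (-0.77), and JUNB with normexp background (-0.37). FOSB with ATRA was called with the mean of a gene's probes (0.24), and FOSB with 9cRA (0.39) lost its call with only the compared groups. Against day 0, JUN with ATRA was called with quantile normalization (0.32), loess (0.33) and the mean of probes (0.28). FOSL1 with 9cRA was called with normexp background (0.34), FOS with ATRA was called with the mean of probes (-0.49), and FOS with 9cRA lost its call there (0.19). FOSB turned with slide as a block, to -0.0048 for 9cRA against day 6 control, -0.041 for ATRA against day 0 and -0.090 for 9cRA against day 0. These block values rest on the single arrays that tie the slides together. Between the retinoids, 21 genes and 2 members were called, and these counts were 34 and 4 with normexp background, 32 genes with quantile normalization, 1 member with median scaling, and 4 and 1 with no filter on dim probes. They were 40 genes with a filter for signal in all groups, 1 member with the mean of a gene's probes, 47 with the fit over probes, 35 and 1 with slide as a block, and 2 and 0 with only the compared groups. With array number as a replicate block they were 2 and 1. Those numbers come from file names, and arrays of one number did not deviate together (r over genes from -0.199 to 0.103 in 18 pairs). Leaving out 1 array gave 0 to 27 genes and 0 to 3 members.

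Elsewhere the fit over probes called 19252 (day 6 control against day 0), 13565 and 13583 (ATRA and 9cRA against day 6 control), and 21969 and 21788 probes (ATRA and 9cRA against day 0). Slide as a block called 4081 genes for 9cRA against day 6 control, and 7052 genes and 2 members for 9cRA against day 0. Leaving out 1 array gave 10019 to 11583, 6920 to 8187, 6688 to 8365, 11776 to 13022 and 11705 to 12988 genes in these 5 comparisons, with 4 to 6, 6 to 8, 6 to 7, 5 to 7 and 5 to 6 members. The authors' deposited table gave 54 member differences within 0.0091 of those here. It holds group means of the same arrays, so this is not an independent check. The dim probes of EGR2, FOSB and FOSL1 limit what can be said at their 5′ ends. EGR3 had a single probe, so its dimness limits all that is said of that gene.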
